A study of Mus musculus with 8 samples.

Results

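The data cover 32 genes of the p53 pathway in mouse mammary tumors. They are the 3 genes of the p53 family (Trp53, Trp63 and Trp73), the regulators Mdm2, Mdm4 and Cdkn2a, 26 genes switched on by p53 (with Mdm2 counted again among them), and Sesn3, a sestrin best known as a target of FOXO factors. The genes were taken from a written list and matched by Ensembl ID, and all 32 were found among the 35539 IDs measured. Values are TPM, a gene's share of all transcripts in its tumor, corrected for transcript length. Trp73 and Eda2r lay under a mean of 1 TPM, so 30 of the 32 genes were tested, among 14835 genes in all, and 25 of the 26 targets.

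RNA-seq was made from 8 frozen mammary tumors of age-matched mice. Tumors 1 to 4 were Brca1f/f Trp53+/- (controls) and tumors 5 to 8 were HMMR Tg/Tg Brca1f/f Trp53+/- (HMMR-Tg), with both copies of a human HMMR transgene placed at the Rosa26 locus behind a stop cassette flanked by loxP sites. All the mice shared the floxed Brca1 alleles, the loss of 1 Trp53 copy, a mixed background and Blg-Cre, a recombinase driven by a milk protein promoter that works in the mammary epithelium of mice that have been pregnant. Brca1 deletion and HMMR induction were therefore limited to the cells that had expressed Cre, while the loss of 1 Trp53 copy was in every cell, stroma included. The labels do not tie the tumors to separate mice, so a p-value here speaks only of the variation among these 8 tumors. No DNA was measured, and the gene-level values do not tell the intact Trp53 allele from the other.

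p53 is a transcription factor that is held at a low level in resting cells and is stabilized by DNA damage and by oncogenes. It then binds response elements near its target genes and raises transcripts that stop the cell cycle, start apoptosis, repair DNA and adjust metabolism. Its amount is set largely at the protein, by Mdm2, an E3 ubiquitin ligase that is itself a p53 target, and by Arf, a product of Cdkn2a that restrains Mdm2. Loss of p53 function is a common partner of Brca1 loss in breast tumors, and tumors of Trp53+/- mice often lose the remaining copy. The levels of the target genes were therefore read tumor by tumor, to see whether any tumor had low targets as a group.

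The tumors were checked first for what else they held. Luminal epithelial markers summed to between 2051 and 5040 TPM in each tumor, and no marker of the 7 tissue lists was at 0 in every tumor. The sum of 12 skeletal muscle markers was 423, 134 and 484 TPM in tumors 1, 3 and 6 and between 17.6 and 47.2 in the other 5. The sum of 8 endothelial markers lay between 84.9 and 94.7 TPM in the controls and between 109 and 210 in the HMMR-Tg tumors, with no overlap. Endogenous Hmmr lay between 9.39 and 15.2 TPM in the controls and between 13 and 20.2 in the HMMR-Tg tumors, which does not measure the human transgene. Brca1 lay between 8.07 and 15.4 TPM in the controls and between 9.56 and 20.5 in the HMMR-Tg tumors. Only some Brca1 exons are floxed, so a gene-level value does not show whether they were deleted. The paper reports lower Brca1 and Trp53 in tumors than in control tissue by qRT-PCR. Between genotypes, no marker of these lists passed the test, and the genes with the smallest p-values are given for each list. All 8 endothelial genes were higher in the HMMR-Tg tumors (median difference 0.56), led by the adhesion molecule Pecam1 (0.67, unadjusted p = 0.0136), the cadherin Cdh5 (0.8, unadjusted p = 0.0183) and the sialomucin Emcn (0.69, unadjusted p = 0.0227). Of 10 fibroblast genes, 9 were higher (median 0.5), with Pdgfrb at 0.55, Col1a1 at 0.91 and Thy1 at 0.55, and of 10 tested leukocyte genes, 9 were higher (median 0.21), with Cd68 at 0.54, Laptm5 at 0.46 and Csf1r at 0.42. The luminal list split into 5 higher and 5 lower, with Elf5 at -0.85, Krt19 at -1.16 and Aldh1a3 at -1.2. In the muscle list 4 of 12 were higher (median -0.34; Myl1 -1.1, Pvalb -0.83 and Des 0.35), and in the adipocyte list 5 of 6 tested (median 0.18; Fabp4 0.87, Cfd 0.72 and Pparg -0.12). In bulk tissue, fewer cells of a type and less RNA per cell cannot be told apart.

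The DNA that p53 reads is shown for the targets with a clear copy of it near their start. Both strands of the mm9 genome were searched from 3000 bases before to 3000 bases after the start of each gene for the p53 response element, which is a pair of 10-base repeats with no gap, allowing up to 2 mismatches outside the 4-base cores. Such a match was found for 6 of the 26 targets (23.1%) and for 757 of 20420 protein-coding genes (3.71%), and a match with at most 1 mismatch for 3 targets (11.5%) and 0.764% of all. Those 3 come first below, followed by the matches of Plk2 and Perp that lie closest to the start, each 5′ to 3′ on the strand of the gene and with the cores in capitals.
Zmat3: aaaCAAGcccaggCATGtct
Ccng1: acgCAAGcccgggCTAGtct
Cdkn1a: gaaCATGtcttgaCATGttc
Plk2: gatCTTGcttagaCTTGttg
Perp: attCTAGcccaggCTTGccc
The Zmat3 element has 0 mismatches and lies in an intron at chr3:32263253-32263272. The Ccng1 element, with 1 mismatch, is also intronic, at chr11:40568438-40568457. That of Cdkn1a, with 1 mismatch, lies upstream of the gene at chr17:29227873-29227892, 51 bases before the annotated start. The Plk2 and Perp elements, with 2 mismatches each, are upstream at chr13:111184602-111184621 and chr10:18562840-18562859. Pmaip1 was the other target with a match, which is not shown. A match is a description of the letters and does not show binding, and genes without one may have elements elsewhere.

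Trp53 itself (chr11:69393861-69405375, mm9) was read at a moderate and even level. It was at 22.5, 27.7, 23.7 and 18.1 TPM in control tumors 1 to 4 and at 32.5, 24.2, 25.9 and 21.5 TPM in HMMR-Tg tumors 5 to 8. Tumor 5 was highest and tumor 4 lowest, 1.8-fold apart, and the genotypes overlapped. The HMMR-Tg minus control difference on the log2(TPM + 1) scale was 0.17, with a 95% interval from -0.33 to 0.68 (limma, n = 4 per genotype). Its SD over the 8 tumors on that scale was 0.24, against a median of 0.44 over all genes tested. No tumor was without Trp53 transcript.

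Both relatives of Trp53 were at lower levels than Trp53 in every tumor. Trp63 encodes p63, which maintains basal and squamous epithelium. It was at 1.22, 21.6, 3.99 and 5.05 TPM in the controls and at 2.92, 0.205, 1.59 and 8.64 TPM in the HMMR-Tg tumors. Tumor 2 stood highest and tumor 6 lowest, 106-fold apart, with the genotypes overlapping (difference -0.92, 95% interval -2.64 to 0.8, and -0.3 without tumor 2). The summed level of 20 genes of p63-dependent basal and squamous epithelium did not take the same order, with 1645 TPM in tumor 2, 1232 TPM in tumor 6 and the highest sums, 2497 and 2506 TPM, in tumors 3 and 5. Abundant genes weigh most in such a sum, and single genes differed. Of 4 chosen after the values were seen, Krt14 was highest in tumor 5 (1131 TPM) and Krt6a in tumor 3 (580 TPM). Krt5 and Col17a1 were highest in tumor 2, at 298 and 29 TPM, against 0.968 and 0.331 TPM in tumor 6. Between genotypes, 10 of 17 tested genes of that list were higher and 7 lower, none passed the test, and the median difference was 0.07. The integrin gene Itgb4 came first by p-value (difference 1.09, unadjusted p = 0.0673), followed by the keratin Krt17 (1.01, unadjusted p = 0.189) and the linker protein gene Dst (0.56, unadjusted p = 0.303). Trp73, the third family gene, with roles in multiciliated cells and neurons, was between 0 and 0.13 TPM.

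**Figure D1:**
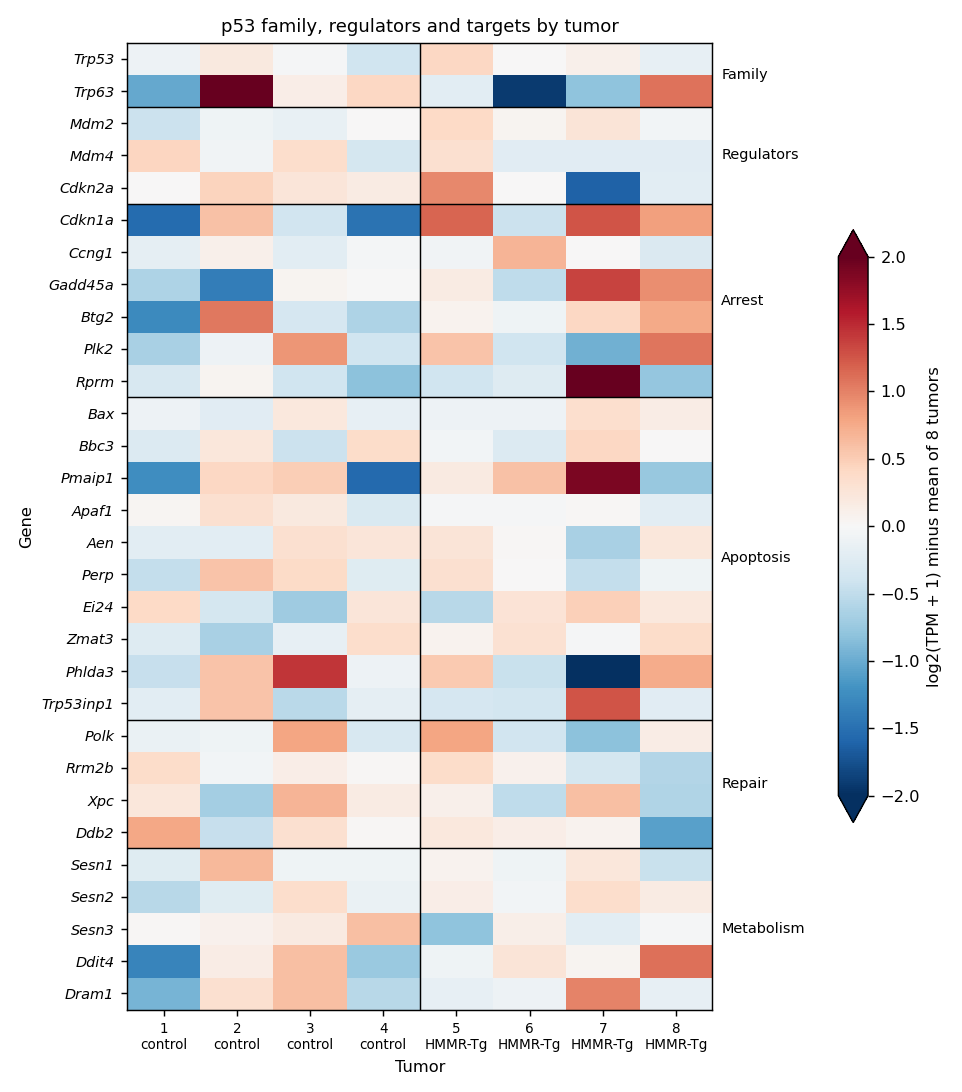
Level of the 30 tested genes (rows, grouped by role) in each of the 8 tumors (columns), as log2(TPM + 1) minus the mean of the 8 tumors; red is above and blue below that mean, and colors stop at 2 in either direction. Tumors 1 and 4 are blue for Cdkn1a, Pmaip1, Btg2, Ddit4 and Dram1, and tumor 7 has dark red cells (Pmaip1, Rprm and Gadd45a) beside dark blue ones (Phlda3 and Cdkn2a).

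Among the regulators, Mdm2 was narrow in range. Mdm2 was at 26.5, 34, 32.4 and 36.2 TPM in the controls and at 48, 37.3, 43.2 and 34.9 TPM in the HMMR-Tg tumors. Tumor 1 was lowest and tumor 5 highest, and only tumor 8 of the HMMR-Tg group lay below the highest control. The difference was 0.33 (95% interval -0.13 to 0.78, limma unadjusted p = 0.137, exact permutation p = 0.0571). Mdm4, a relative of Mdm2 that blocks p53 transactivation, was at 77, 53.8, 72.8 and 44.5 TPM in the controls and at 71.2, 48.6, 48.3 and 48.7 TPM in the HMMR-Tg tumors. It was high in tumors 1, 3 and 5 and between 44.5 and 53.8 TPM in the other 5 (difference -0.18, 95% interval -0.72 to 0.37).

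Cdkn2a (chr4:88920377-88940557) encodes the cell cycle inhibitor Ink4a as well as Arf, and the value adds up both transcripts. It was abundant in the controls, at 105, 143, 124 and 117 TPM, and spread widely in the HMMR-Tg tumors, at 204, 105, 33.4 and 89.5 TPM. Tumor 5 held the highest level and tumor 7 the lowest, on either side of the whole control range, so the mean difference of -0.43 had a 95% interval from -1.45 to 0.58. The neighboring genes Cdkn2b, another inhibitor of the same family, and Mtap, an enzyme of methionine salvage, were at 7.3 and 12.3 TPM in tumor 7. Each was at its lowest there, against 14.5 to 62 TPM for Cdkn2b and 18.1 to 71.6 TPM for Mtap in the other tumors. All 3 tested genes of the locus were thus detected in tumor 7 at a lower level than in any other tumor, and 33.4 TPM of Cdkn2a remained. The wider region gave another order: the 8 other tested genes within 2 Mb had a median deviation of -0.42 in tumor 7 and -0.47 in tumor 1, and the 20 within 5 Mb had -0.2 and -0.5. The 897 tested genes of chromosome 4 had a median of -0.01 in tumor 7 and -0.27 in tumor 1. Within 2 Mb the region thus lay further below its chromosome in tumor 7 than in tumor 1, but not within 5 Mb. In tumor 5, Cdkn2b was also at its highest, at 62 TPM.

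The genes of cell cycle arrest held the member that differed most between genotypes. Cdkn1a (chr17:29227924-29237667), which encodes the kinase inhibitor p21 and carries the element shown above, was at 6.3, 30.7, 15.3 and 6.65 TPM in the controls and at 46.5, 14.7, 49.7 and 36.5 TPM in the HMMR-Tg tumors. It was lowest in tumors 1 and 4 and highest in tumors 7 and 5, but the genotypes overlapped, because tumor 6 lay below control tumors 2 and 3. The difference was 1.4 on the log2(TPM + 1) scale (SE 0.53, 95% interval 0.21 to 2.6), with means of 14.7 and 36.8 TPM (n = 4 each). Its unadjusted limma p was 0.026, its p adjusted over all genes tested was 1, and its exact permutation p was 0.0857, where the smallest that 4 against 4 allows is 0.0286. Without tumor 1, 4, 5, 7 or 8, each left out in turn, the unadjusted p rose to between 0.054 and 0.076, and without tumor 2, 3 or 6 it was 0.00434, 0.0327 and 0.00732. The 8 endothelial marker genes were also all higher in the HMMR-Tg tumors, and the part of that difference in the Cdkn1a value was not tested.

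Gadd45a, a stress sensor that acts on growth arrest and repair, was at 59.4, 34.4, 94.7 and 90.5 TPM in the controls and at 102, 64.2, 235 and 175 TPM in the HMMR-Tg tumors. Tumors 7 and 8 were the highest and tumor 2 the lowest, and tumor 6 fell inside the control range (difference 0.97, 95% interval -0.03 to 1.97, unadjusted p = 0.055). Btg2, an antiproliferative gene, was at 7.25, 40.2, 14.8 and 12 TPM in the controls and at 19.8, 17.6, 25.5 and 32.6 TPM in the HMMR-Tg tumors. Only control tumor 2 exceeded the HMMR-Tg tumors, and its level was the highest of all 8 (difference 0.58, 95% interval -0.44 to 1.59).

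Ccng1, a cyclin that feeds back on Mdm2, was the flattest of the arrest genes. Its level was 17.6, 21.5, 17.1 and 19.5 TPM in the controls and 19.1, 32.8, 20.2 and 16.2 TPM in the HMMR-Tg tumors, so that only tumor 6 stood apart (difference 0.17). Plk2, a polo-like kinase, was at 51, 74.5, 149 and 60.7 TPM in the controls and at 120, 60.8, 40.7 and 170 TPM in the HMMR-Tg tumors. Tumors 3, 5 and 8 were high and tumor 7 lowest, a split that crossed the genotypes (difference 0.14). Rprm, a gene linked to arrest before mitosis, was at 12.2 TPM in tumor 7 and between 0 and 0.848 TPM in the other 7, and it passed the filter on low values through tumor 7 alone. Rprm was therefore left out of the count of this group. The other 5 arrest genes had positive differences, with a median of 0.58 (all genes tested: -0.01, with 48.7% positive). Of the 5, only Cdkn1a had an unadjusted limma p under 0.05, and it was also the only such gene among all 30 tested members. The share over all genes tested was 3.46%. Leaving out 1 tumor turned the sign of the Ccng1 and Plk2 differences, which reached -0.03 and -0.2.

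**Figure D2:**
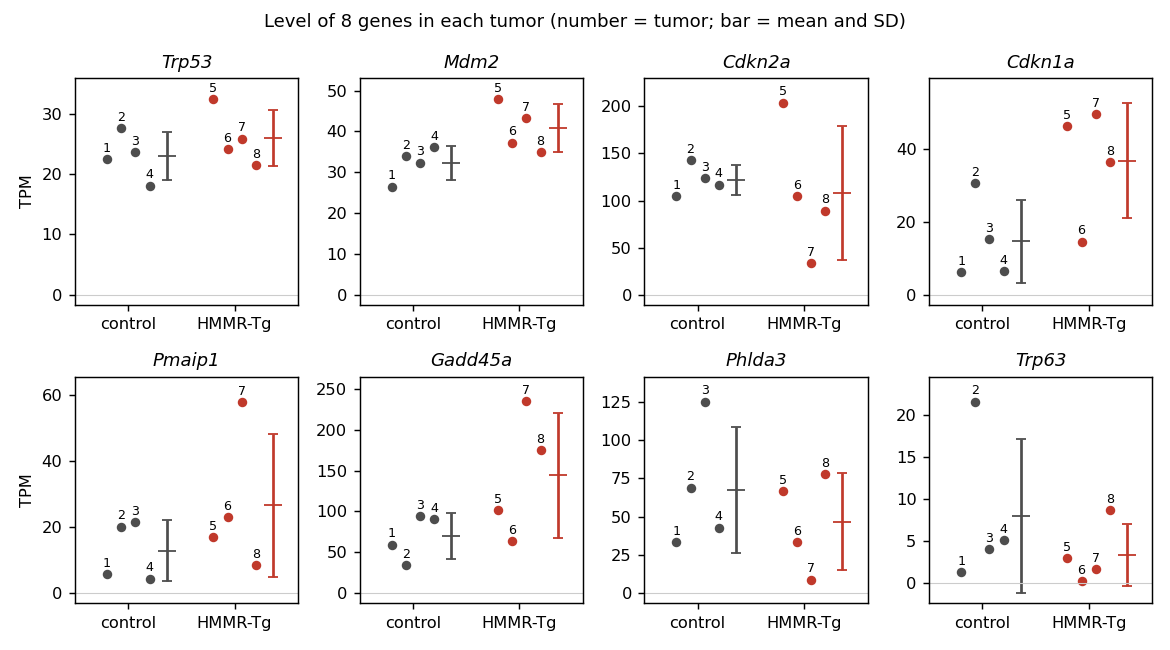
TPM of 8 genes in each tumor, with points labeled by tumor number (gray controls 1 to 4, red HMMR-Tg 5 to 8) and a bar for the mean and SD of each genotype, n = 4. Cdkn1a is at 6.3 and 6.65 TPM in tumors 1 and 4, while Phlda3 and Cdkn2a are lowest in tumor 7, which is highest for Cdkn1a, Pmaip1 and Gadd45a.

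The apoptosis genes did not move as a block. Of the 10 tested, 6 had a positive and 4 a negative difference, with a median difference of 0.1 and none past the test. Pmaip1, which encodes the BH3-only protein Noxa, was at 5.72, 20.2, 21.5 and 4.43 TPM in the controls and at 17, 23.1, 58 and 8.47 TPM in the HMMR-Tg tumors. Tumors 4, 1 and 8 were low and tumor 7 was 13.1-fold above tumor 4 (difference 0.95, 95% interval -0.47 to 2.37). Bbc3, which encodes the BH3-only protein Puma, did not share that pattern. It was at 7.4, 10.9, 6.51 and 12.2 TPM in the controls and at 8.83, 7.44, 12.6 and 9.27 TPM in the HMMR-Tg tumors, with tumor 4 next to the highest (difference 0.06).

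Bax, the pore-forming effector of apoptosis, was abundant and stable, between 65.1 and 88.9 TPM in the controls and between 70.8 and 96.7 TPM in the HMMR-Tg tumors (difference 0.14, 95% interval -0.3 to 0.58). Apaf1, the scaffold of the apoptosome, was between 8.27 and 13.4 TPM, a 1.62-fold range against 1.48-fold for Bax. Its lowest level was in tumor 4.

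Phlda3, which restrains Akt at the membrane, showed the widest range of the apoptosis genes. It was at 33.2, 68.9, 125 and 42.9 TPM in the controls and at 66.7, 33.5, 9 and 77.8 TPM in the HMMR-Tg tumors. Tumor 7 was 13.9-fold below tumor 3 and lay outside the range of the other 7, whose values overlapped between genotypes (difference -0.71, 95% interval -2.16 to 0.74; without tumor 7 it was -0.09). Trp53inp1, a stress protein of cell death and autophagy, went the other way in that tumor, at 29.2 TPM against 7.7 to 17.8 TPM in the other 7. Aen, a nuclease of apoptosis, was lowest in tumor 7 as well, at 15 TPM against 20.6 to 30.3 TPM elsewhere. Perp, a membrane protein of desmosomes and cell death, was at 45.1 TPM in tumor 7 and 45.3 TPM in tumor 1, and reached 94.8 TPM in tumor 2.

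Zmat3, an RNA-binding protein with the closest match to the p53 element, was at 5.11, 3.64, 5.54 and 8.29 TPM in the controls and at 6.63, 8.06, 6.2 and 8.47 TPM in the HMMR-Tg tumors. The lowest 3 values were controls, and tumor 4 was the second highest (difference 0.36, 95% interval -0.26 to 0.99). Its range was 2.32-fold and that of Ccng1 was 2.03-fold, against 7.89-fold for Cdkn1a, so the 3 genes with the closest matches varied to different degrees. Ei24, an endoplasmic reticulum protein linked to autophagy, was low in tumors 2, 3 and 5, at 47.7, 37.1 and 41.4 TPM, and between 71.2 and 85.5 TPM in the other 5. Eda2r, a receptor of the tumor necrosis factor family, was between 0.0902 and 0.904 TPM and was not tested.

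The 4 DNA repair targets all had a negative difference, each within its error, with a median of -0.22. Ddb2, a sensor of ultraviolet damage, was at 24.8, 9.98, 17.9 and 14.5 TPM in the controls and at 16.6, 15.7, 15 and 6.17 TPM in the HMMR-Tg tumors. Tumor 1 was the highest and tumor 8 the lowest (difference -0.33, 95% interval -1.16 to 0.51, and -0.02 without tumor 8). Xpc, its partner in nucleotide excision repair, was likewise low in tumors 2 and 8, at 7.21 and 7.67 TPM, and at 8.22 TPM in tumor 6, against 13.1 to 20.1 TPM in the others (difference -0.2). Rrm2b, a subunit of the p53-inducible ribonucleotide reductase, was lowest in tumors 8 and 7, at 5.82 and 7.09 TPM (difference -0.24). Polk, a translesion DNA polymerase, was at 16.1 TPM in tumors 3 and 5 and at 4.58 to 10 TPM in the others, with the low in tumor 7 (difference -0.13). Tumor 1, the lowest for Cdkn1a, thus had the highest Ddb2 of the 8 tumors and a Rrm2b level, 12.3 TPM, equal to that of tumor 5 at this rounding.

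Among the genes of metabolism, stress and autophagy, Ddit4, an inhibitor of mTORC1 signaling, was at 33.5, 94.1, 130 and 50.7 TPM in the controls and at 80.3, 102, 88.1 and 183 TPM in the HMMR-Tg tumors. Tumors 1 and 4 were again the lowest pair (difference 0.66, 95% interval -0.31 to 1.62). Dram1, a lysosomal protein of autophagy, was at 15.4, 38.2, 47 and 20.4 TPM in the controls and at 27.1, 28.4, 61.6 and 27.2 TPM in the HMMR-Tg tumors, with tumors 1 and 4 lowest and tumor 7 highest (difference 0.28, and 0.0 without tumor 7). The sestrins, which respond to oxidative and nutrient stress, differed among themselves. Sesn2 lay between 2.9 TPM in tumor 1 and 6.28 TPM in tumors 3 and 7, and Sesn1 between 7.37 TPM in tumor 8 and 16.8 TPM in tumor 2. Sesn3 was at 22.6, 23.7, 25.3 and 34.3 TPM in the controls and at 12.3, 24.2, 19.1 and 21.7 TPM in the HMMR-Tg tumors. Tumor 5 was lowest and tumor 4 highest (difference -0.46, 95% interval -1.05 to 0.13), whereas Trp53 was highest in tumor 5 and lowest in tumor 4.

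**Figure D3:**
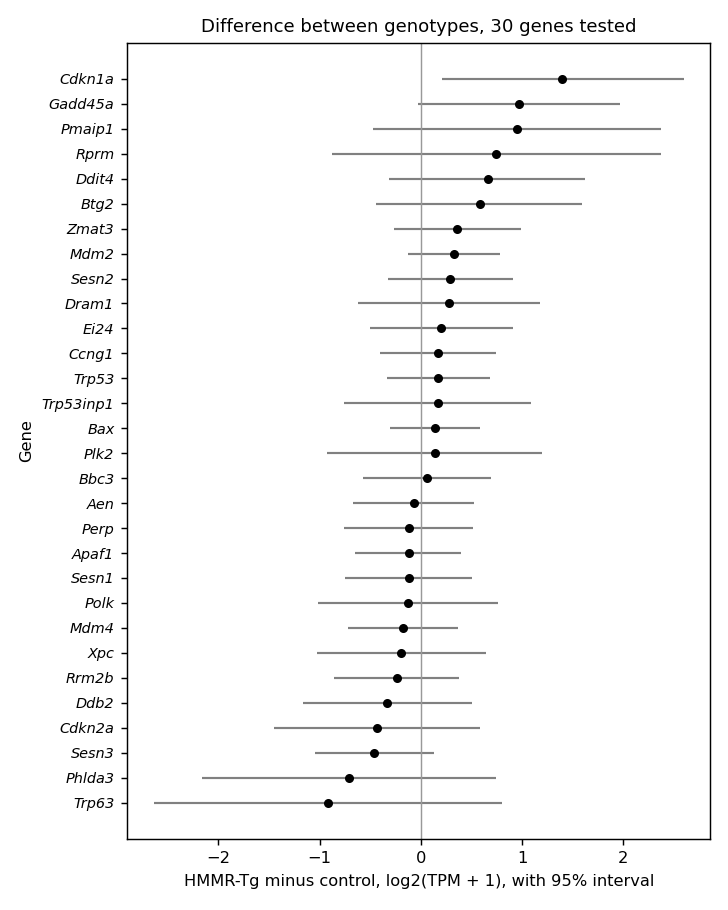
HMMR-Tg minus control difference of the 30 tested genes on the log2(TPM + 1) scale (points) with the 95% interval from limma (lines), n = 4 tumors per genotype. Cdkn1a, at 1.4, has the only interval that does not cross 0, before any adjustment for the number of genes.

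Over the pathway as a whole, none of the 30 tested genes passed the test between genotypes after adjustment over all genes. In the same fit, 9 of 14835 genes (0.0607%) did so. At an unadjusted p under 0.05 there was 1 member, Cdkn1a, against 3.46% of all genes, and no member was without overlap between genotypes, against 2.23% of all genes. Of the 25 tested targets, 16 were higher and 9 lower, with a median difference of 0.17 (15 of 24 and 0.15 without Rprm). Of 22 tested genes in a separate list of p53 targets outside the 32, 11 were higher and 11 lower, with a median of 0.05. In that list Fbxo32, a ubiquitin ligase subunit best known from muscle wasting, had the smallest p (difference -0.86, unadjusted p = 0.0144), followed by Tigar, which lowers glycolytic flux (0.82, unadjusted p = 0.0376), and Ephx1, an epoxide hydrolase (-0.65, unadjusted p = 0.163), none of which passed after adjustment. The muscle marker sums were high in tumors 1, 3 and 6, and their part in these values was not tested.

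The second question was whether any tumor had low targets as a group. For each gene the deviation from its 8-tumor mean was taken on the log2(TPM + 1) scale, and the median over the 25 tested targets was read in each tumor, as a description. It was -0.28, 0.06, 0.19 and -0.13 in control tumors 1 to 4 and 0.11, -0.08, 0.25 and 0.02 in HMMR-Tg tumors 5 to 8. Tumor 1 was the lowest and tumor 4 the next, while the same median over all genes tested was -0.05 in tumor 1 and 0.07 in tumor 4. In tumor 1, 20 of the 25 targets (80%) lay below their mean, against 54.3% of all genes, and in tumor 4 it was 17 (68%), against 44.5%. Both counts include Rprm, at -0.316 and -0.827. It passed the filter on low values through tumor 7 alone, so its low place in tumors 1 and 4 carries no weight. With a filter at 5 TPM, which leaves out Rprm and Sesn2, the medians were -0.26 in tumor 1 and -0.1 in tumor 4.

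No tumor held all or most of the lowest values. Tumor 1 was the lowest of the 8 for 6 targets (24%), namely Mdm2, Cdkn1a, Sesn2, Btg2, Ddit4 and Dram1, against 15.8% of all genes. Tumors 2, 3 and 4 were the lowest for 4, 3 and 3 targets, against 13.8%, 11.8% and 12.6% of all genes. The count of tumor 4 includes Rprm, at 0 TPM there. Tumors 5 and 6 were the lowest for none, against 5.55% and 14.9% of all genes. Tumors 7 and 8 were the lowest for 5 and 4 targets, against 11.9% and 13.7%. Tumor 7 was at the same time the highest for 8 of the 24 targets other than Rprm (33.3%), against 14% of all genes, so the tumor with the highest median also held the lowest Plk2, Phlda3, Perp, Aen and Polk.

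Tumors 1 and 4 formed the lowest pair for 5 targets, Cdkn1a, Pmaip1, Btg2, Ddit4 and Dram1, which is 20% of the 25 against 6.23% of all genes. This pair was picked after the values were seen. The next most frequent pair was tumors 1 and 7, for Plk2, Phlda3, Perp and Aen (16%, against 4.11% of all genes). A core of 11 tested targets held Mdm2, Cdkn1a, Ccng1, Bax, Bbc3, Zmat3, Sesn2, Phlda3, Trp53inp1, Ei24 and Aen. Of the 5 targets lowest in tumors 1 and 4, it held Cdkn1a but not Pmaip1, Btg2, Ddit4 or Dram1. Over this core the median was -0.26 in tumor 1 but -0.04 in tumor 4, where Bbc3 and Zmat3 were each the second highest of the 8. In the 22 other p53 targets the medians were -0.07 and 0.03, and the lowest was -0.24, in tumor 6. Of the 11 core targets, 10 lay below their mean in tumor 1 and 6 in tumor 4, so the low levels ran through more of the core targets in tumor 1 than in tumor 4. That contrast depends on which targets were put in the core.

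**Figure D4:**
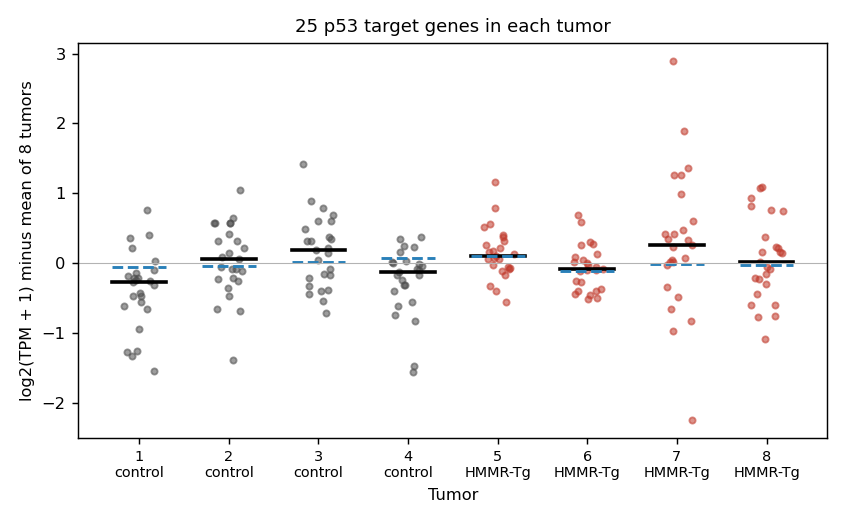
Each point is 1 of the 25 tested p53 targets, as log2(TPM + 1) minus its mean over the 8 tumors (gray controls, red HMMR-Tg); the black line is the median of the targets and the blue dashed line the median of all genes tested. The medians run from -0.28 in tumor 1 to 0.25 in tumor 7, and the points of every tumor lie on both sides of 0.

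No tissue marker sum took the full order of the target medians, but some sums were lowest in tumors 1 and 4. Tumor 1 had a muscle marker sum of 423 TPM and tumor 4 one of 22.4 TPM, and tumor 6, with the highest muscle sum, 484 TPM, had a target median of -0.08. The leukocyte sum was 635, 1258, 752 and 420 TPM in the controls and 795, 862, 1249 and 646 TPM in the HMMR-Tg tumors. Tumors 4 and 1 were thus the lowest for leukocytes, with tumor 8 close above tumor 1. The same pair was lowest for basal and squamous genes, at 772 TPM in tumor 1 and 678 TPM in tumor 4. It was lowest for adipocyte genes too, at 32.9 and 51.9 TPM. The luminal sum was lowest in tumor 8, at 2051 TPM, and the endothelial sum in tumor 2, at 84.9 TPM. The fibroblast sum was also lowest in tumor 4, at 284 TPM, while that of tumor 1, at 642 TPM, was above those of tumors 3, 5 and 6, at 459, 517 and 573 TPM. Whether these cells account for part of the target levels was not tested.

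Cell cycle genes that p53 lowers through p21 were read beside Cdkn1a. The median deviation of 24 such genes was -0.33, -0.18, 0.08 and -0.03 in the controls and 0.59, -0.39, 0.11 and 0.08 in the HMMR-Tg tumors. Tumor 5, with Cdkn1a at 46.5 TPM, had all 24 above their mean and 10 at their highest, while tumor 1, with the lowest Cdkn1a, had 20 of 24 below their mean. Tumor 4, with Cdkn1a at 6.65 TPM, had 12 below. Tumor 6, with a high muscle sum like tumor 1, also had 20 below, and the part of muscle in these values was not tested. Between tumors 1 and 5, a pair picked after the values were seen, higher Cdkn1a did not go with lower levels of these genes. The relation over all 8 tumors was not tested. Between genotypes, 16 were higher and 8 lower, with a median of 0.23 and none past the test. The mitotic kinase Plk1 had the smallest p (difference 0.75, unadjusted p = 0.0393), followed by the replication factor Mcm5 (0.39, unadjusted p = 0.096) and the cyclin Ccna2 (0.4, unadjusted p = 0.0988).

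The genes of the Rb pathway, through which Ink4a and p21 act on the cell cycle, gave 6 higher and 4 lower of 10, with a median of 0.11 and none past the test. The cyclin Ccnd1 had the smallest p (difference 0.65, unadjusted p = 0.0723), with 101 to 242 TPM in the controls and 168 to 382 TPM in the HMMR-Tg tumors. Cdk6, the kinase that Ink4a and Cdkn2b inhibit, was at 468 TPM in tumor 5 and between 5.52 and 22.3 TPM in the other 7. Tumor 5 thus held the highest Cdk6, Cdkn2a and Cdkn2b at once. Rb1, which encodes the retinoblastoma protein itself, was at 34.5, 47.7, 18.2 and 60.6 TPM in the controls and at 31.6, 29.7, 27.7 and 23 TPM in the HMMR-Tg tumors (difference -0.39, unadjusted p = 0.282).

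Upstream of p53, 11 of 25 listed regulators were higher and 14 lower, with a median difference of -0.09 and none past the test. The list held kinases, cofactors and ubiquitin ligases, and also ribosomal proteins, transcription factors and histone chaperones, among others. Chek2, a checkpoint kinase that acts on p53 after DNA breaks, was at 30, 56.2, 26.1 and 44.7 TPM in the controls and at 31.3, 22.4, 20.5 and 20.6 TPM in the HMMR-Tg tumors. Of the HMMR-Tg tumors only tumor 5 exceeded the lowest control (difference -0.66, unadjusted p = 0.0433). Chek1, the kinase of the replication checkpoint, had a difference of 0.38 (unadjusted p = 0.135), and Daxx, a histone chaperone that binds Mdm2, one of 0.35 (unadjusted p = 0.149).

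The level of Trp53 itself was then compared with that of its targets across the 8 tumors. The median Pearson correlation of the 25 targets with Trp53 was 0.22, with 18 positive, against a median of 0.02 over all genes tested, of which 51.8% were positive. The targets share the 8 libraries and are not independent of each other. Cdkn1a had the highest value (r = 0.7, exact permutation p = 0.0511; Spearman rho = 0.6, p = 0.132), followed by Pmaip1 (r = 0.62, exact permutation p = 0.0963; rho = 0.6, p = 0.132). Sesn3, which is not counted among the targets, had r = -0.85 (exact permutation p = 0.016; rho = -0.55, p = 0.171). None of the 29 relations passed Benjamini-Hochberg adjustment over the 29 (lowest adjusted p = 0.465). Without tumors 4 and 5, which lay farthest from the median Trp53 level, r fell to 0.4 for Cdkn1a and to -0.05 for Sesn3, and was 0.7 for Pmaip1, and the median over the targets was 0.05, so the relations of Cdkn1a and Sesn3 rested on those tumors. With genotype means subtracted, r was 0.65 for Cdkn1a, 0.54 for Pmaip1 and -0.85 for Sesn3.

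Finally, the genes around Trp53 were read, because a lost chromosome segment would take neighbors with it. The median deviation of the 102 tested genes within 2 Mb of Trp53 was -0.33, 0.2, 0.13 and -0.24 in control tumors 1 to 4 and 0.36, 0.03, -0.01 and -0.22 in HMMR-Tg tumors 5 to 8. Tumors 1, 4 and 8 were low and tumor 5 high, and Trp53 deviated in the same direction in each of them, by -0.1, -0.4, -0.16 and 0.41. In tumor 4 the 1177 tested genes of the whole of chromosome 11 had a median of 0.12, so the median near Trp53 lay below that of the chromosome. In tumor 1 the chromosome was at -0.14 and in tumor 8 at -0.25. In tumors 2, 3 and 5 it was at 0.04, -0.05 and 0.17, so the median near Trp53 lay above the chromosome there. In tumors 6 and 7 it was at 0.04 and -0.01, close to the median near Trp53. Of the 102 genes, 78.4% were below their mean in tumor 1, against 62.4% of the chromosome, and 70.6% in tumor 4, against 39.5%. In tumor 8 the shares were 69.6% near Trp53 and 71.1% on the chromosome, so the share near Trp53 was no higher than that of the chromosome. These are transcript levels, and DNA copy number was not measured. The target median was -0.28 in tumor 1 and -0.13 in tumor 4, the lowest of the 8 tumors. In tumor 8 Cdkn1a was at 36.5 TPM and the target median was 0.02. Tumor 8 was not low near Trp53 beyond its chromosome, so it cannot show whether targets follow a local drop. Whether targets follow the region was not tested.

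**Figure D5:**
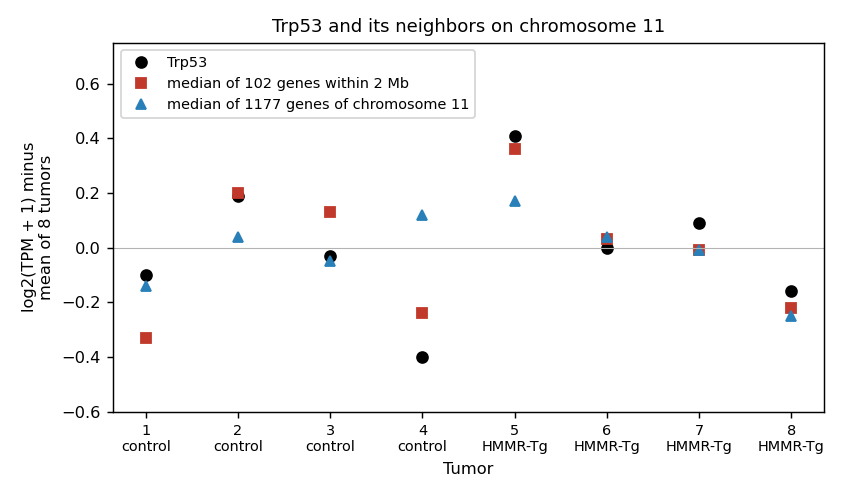
Deviation from the 8-tumor mean on the log2(TPM + 1) scale for Trp53 (black circles), the median of the 102 tested genes within 2 Mb of it (red squares) and the median of the 1177 tested genes of chromosome 11 (blue triangles), by tumor. In tumor 4 Trp53 (-0.4) and its neighbors (-0.24) lie below 0 while the chromosome lies at 0.12; in tumor 5 all 3 are above 0.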

How the data were processed

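The authors deposited gene-level TPM for 8 tumors in 1 table. Kallisto and tximport are named in the study's methods, whereas bedtools, SAMtools 0.1.18 and STAR 2.4.0f1 are named in the submitters' processing notes; which route gave the deposited TPM was not settled, and both name mm9. TPM keeps no depth, so no counting interval is given, and a gene that takes more of the RNA lowers the others. Genotypes came from the sample titles.

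Symbols came from GENCODE M1 (25388 of 35539 IDs), with newer names for 4 list genes. limma 3.58.1 (R 4.3.3) was fitted to log2(TPM + 1) for every gene whose mean reached 1 TPM, two-sided, with a mean-variance trend and Benjamini-Hochberg adjustment over all genes tested, and was tested on simulated data. A fold change on this scale understates the change of low genes. Exact permutation tests used 70 arrangements, and correlations 40320 pairings. Alternatives were other pseudocounts (0.1, 5), filters (none, 5 TPM), scalings, variance settings, core targets, a 5 Mb window and leaving out each tumor. All members were described, and from each other list the 3 genes with the smallest p. The members and lists were chosen with earlier results of these data known. No pair of columns was identical. Other steps ran in Python 3.11.15 with scipy 1.17.1, numpy 2.4.6, pandas 2.3.3 and matplotlib 3.10.9.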

Additional observations from a re-analysis of the deposited data

Results flagged for a closer look

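Each of the 30 tested genes was checked in both genotypes for a tumor that stands apart from the other 3 by Dixon's gap test, which flags about 1 in 20 groups by chance. Of the 60 groups, 5 had such a tumor, all among the HMMR-Tg tumors. Tumor 7 stood apart for Trp53inp1, at 29.2 TPM (next highest 9.73), and for Dram1, at 61.6 TPM (next 28.4). It was also flagged for Rprm, at 12.2 TPM (next 0.489). Rprm passed the filter on low values through tumor 7 alone, so its flag followed from the filter and does not count beside the chance rate. Mdm4 was at 71.2 TPM in tumor 5, above 48.7 TPM in the next tumor. Ddb2 was at 6.17 TPM in tumor 8, below 15 TPM in the next tumor.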

How the results depend on the processing

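No member passed the test under any alternative, and the lowest adjusted p of a member was 0.814. Over all genes, 6 to 10 were called with 1 tumor left out (9 with all 8) and 0 without tumors 1, 3 and 6, an alternative chosen after seeing the data. That alternative compared control tumors 2 and 4 with HMMR-Tg tumors 5, 7 and 8, so fewer tumors were left to call from. Genes at an unadjusted limma p under 0.05 numbered 609 there and 513 with all 8. Without tumors 1, 3 and 6 the difference was 1.53 for Cdkn1a and 1.51 for Gadd45a, and 5 members changed sign: Mdm4 (0.17), Ccng1 (-0.14), Bbc3 (-0.17), Polk (0.24) and Xpc (0.29). With 1 tumor left out in turn, 10 members changed sign at least once, over ranges of -0.17 to 0.14 for Aen, -0.08 to 0.19 for Bbc3, -0.03 to 0.29 for Ccng1, -0.83 to 0.03 for Cdkn2a, -0.3 to 0.05 for Perp, -0.2 to 0.48 for Plk2, -0.42 to 0.12 for Polk, -0.1 to 1.12 for Rprm, -0.22 to 0.08 for Sesn1 and -0.23 to 0.39 for Trp53inp1. Cdkn1a stayed between 1.13 and 1.83, while the difference ran from -0.53 to -0.02 for Ddb2, 0.0 to 0.53 for Dram1, -1.44 to -0.3 for Trp63 and -1.08 to -0.09 for Phlda3. The target median of tumor 3 was -0.16 over the core targets (0.19 over all 25), and the median correlation with Trp53 was 0.05 without tumors 4 and 5. The other alternatives of the member differences, 485 of 508 values, kept their sign. The cause of these changes was not tested. No paired analysis was possible because the labels give no link between single control and HMMR-Tg tumors.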
